A study of Mus musculus with 8 samples.

Results

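In mouse liver, 10 Serpina genes were followed in mRNA and in ribosome footprints, namely Serpina1a, Serpina1b, Serpina1c, Serpina1d, Serpina1e, Serpina3k, Serpina3m, Serpina3n, Serpina6 and Serpina10. They were chosen by symbol and make up 10 of the 24079 symbols present in both assays. The RNA-seq values hold 26 Serpina symbols, so 16 were not members. Livers came from C57BL/6 mice fed a high-fat diet with 45% of the energy from fat, either alone (HF group) or with betaine, a methyl donor, dissolved at 2% (w/v) in the drinking water (HB group). The diet began at week 8 and the labels give the age at sampling as postnatal week 25, while they also give 25 weeks of feeding. Between those ages lie 17 weeks, which is the feeding time in the methods of the study. Both groups carried the high-fat diet, so no comparison here is with a standard diet. Each group had 6 mice and 2 libraries per assay. The labels describe pooled RNA preparations, whereas the methods of the study speak of 2 mice per group picked by body weight, so whether a library is 1 animal or a pool is open to doubt. Here n = 2 counts libraries, and the p-values measure only the spread between these libraries, which may be technical. RNA-seq measured polyadenylated mRNA. Ribo-seq measured the fragments of mRNA left inside ribosomes after RNase digestion (RPFs, or footprints), following treatment with cycloheximide, a drug that halts elongating ribosomes.

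Serpins are serine protease inhibitors that hepatocytes secrete into plasma in large amounts. An exposed reactive centre loop acts as bait: the protease cleaves it, stays bound and is carried to the far side of the serpin, where it is held inactive. Serpina1a to Serpina1e are the mouse copies of alpha-1-antitrypsin, whose best known target is neutrophil elastase. Serpina3k, Serpina3m and Serpina3n belong to the mouse group that corresponds to human alpha-1-antichymotrypsin, an inhibitor of chymotrypsin-like proteases. Serpina6 is corticosteroid-binding globulin, which carries glucocorticoids in plasma and inhibits no protease. Serpina10 is the protein Z-dependent inhibitor of coagulation factor Xa.

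All 10 genes lie on chromosome 12 in GRCm38 (GENCODE M21). Serpina10 is at chr12:103614786-103631444 and Serpina6 at chr12:103646630-103657212. The Serpina1 genes follow, with Serpina1b at chr12:103728156-103830373, Serpina1d at chr12:103763594-103773592, Serpina1a at chr12:103853589-103863562, Serpina1c at chr12:103894926-103904887 and Serpina1e at chr12:103946931-103958975. These 7 genes are on the minus strand, and the annotated span of Serpina1b encloses Serpina1d. Serpina3k (chr12:104338486-104346144), Serpina3m (chr12:104338486-104394257) and Serpina3n (chr12:104406729-104414329) are on the plus strand. Serpina3k and Serpina3m are annotated from the same first base, so reads in that stretch cannot be assigned by position alone.

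The Serpina1 copies are close enough to share reads, and the loop is a stretch where they differ. Their coding sequences of 1239 bases were 96.3% to 98.5% identical over 10 pairs, and Serpina1a and Serpina1c were the closest, with 19 differing bases. Below are 30 bases of the loop from each, 5′ to 3′ on the coding strand, shown because a read from this stretch can tell copies apart: 13 of the 30 positions are not the same in all 5 genes. Capitals mark the codon just before the bond that the protease attacks, which is methionine in Serpina1a and Serpina1b, tyrosine in Serpina1c and Serpina1d and leucine in Serpina1e. Each window lies in exon 5 of 5, in coding sequence, at chr12:103853783-103853812 for Serpina1a, chr12:103728350-103728379 for Serpina1b, chr12:103895120-103895149 for Serpina1c, chr12:103763788-103763817 for Serpina1d and chr12:103947126-103947155 for Serpina1e.
Serpina1a: gttacagtcttacaaatggttcctATGtct
Serpina1b: gctacagtctttgaagccgttcctATGtct
Serpina1c: gctacagtcttactagccgttcctTATtct
Serpina1d: gctacagtcttacaagtcgctactTATtct
Serpina1e: gctacagtcttacaaggcggttttTTGtct

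The Serpina3 members are further apart. Over coding sequences of 1254 bases, Serpina3k and Serpina3m were 91.1% identical, Serpina3m and Serpina3n 85.2%, and Serpina3k and Serpina3n 82.7%. The same loop window of these genes is given here, with capitals at the 18 of 30 positions that are not the same in all 3. It lies in exon 5 of 5 at chr12:104345287-104345316 for Serpina3k, chr12:104393787-104393816 for Serpina3m and chr12:104413466-104413495 for Serpina3n.
Serpina3k: gccacAggGGtTaTTGGtgGcATTCGTAAG
Serpina3m: gccacAggGTtCaTTTTtgGcTTTCGTTCT
Serpina3n: gccacTggAGtCaAATTtgTcCCAATGTCT

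How many reads could be confused depends on their length. Of the 1212 windows of 28 bases, the approximate fragment size taken from the gel per the labels, in the Serpina1a coding sequence, 92.6% had an exact copy in the transcripts of another gene, and 79.1% had one in Serpina1c. The share was 84.2% for Serpina1c, 70.0% for Serpina1d, 66.1% for Serpina1b and 61.4% for Serpina1e. It was lower in the Serpina3 members, at 46.7% for Serpina3m, 39.3% for Serpina3n and 36.3% for Serpina3k. Serpina6 shared none of its windows and Serpina10 0.228%, so their values are the only ones free of this limit. At 50 bases, the RNA-seq read length of the labels, Serpina1a still shared 83.9% and Serpina1e 39.0%. The methods of the study give 100 cycles instead, and at 100 bases the shares were 64.3% and 19.1%. Footprints longer than 28 bases would share less than the values at 28 bases give. How the mapping divided such reads is not given in the sources used here, so values of single Serpina1 and Serpina3 members are uncertain, and sums over each group are given as well.

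**Figure D1:**
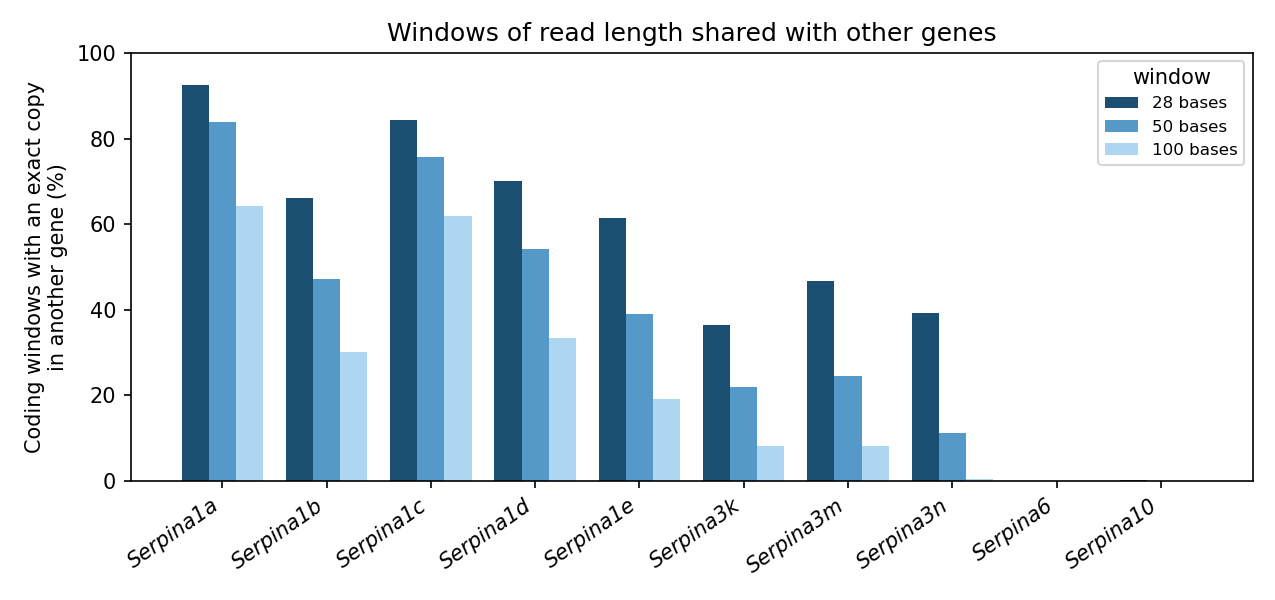
Share of coding windows (%, y axis) of each gene with an exact copy in the transcripts of another gene, for windows of 28, 50 and 100 bases (bars). Serpina1a and Serpina1c are highest at each length, Serpina1a at 92.6% for 28 bases and 64.3% for 100 bases, and Serpina6 and Serpina10 are at or near 0.

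RefSeq promoters (GRCm38.p6, 250 bases before to 50 after the start) were at hand for 6 members, the Serpina1 genes and Serpina3n. All 5 Serpina1 promoters held the 12 bases GTTAATATTCAC, which were picked after these promoters had been read and resemble the site of the liver factor HNF1. Searched on both strands, the 12 bases occurred in 5 of 32851 promoters, or 0.0152%, and these were the Serpina1 genes. The shorter GTTAAT, which lies within the 12 bases, occurred in 2332 promoters (7.10%) and in the same 5 of the 6 member promoters. A pair of windows of 30 bases is printed to show how alike the promoters are, with the 12 bases in capitals: they begin 21 bases before the start of Serpina1a (window chr12:103863620-103863649) and 16 before that of Serpina1d (window chr12:103773629-103773658), both on the minus strand.
Serpina1a promoter: gtgacattgGTTAATATTCACtagcaaacc
Serpina1d promoter: gtgacattgGTTAATATTCACtagcaaact

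Depth differed more in Ribo-seq than in RNA-seq. Values are RPKM, reads scaled by gene length and by library size, and totals inferred from the steps of 1 read ran from 11661207 to 22543471 reads in RNA-seq and from 141890 to 1056546 in Ribo-seq, with both HB libraries the shallowest in Ribo-seq. The members rested on 766 to 219105 reads in RNA-seq and on 15 to 8017 in Ribo-seq, and the exact intervals given cover counting error only. Protein-coding genes took 93.6% and 92.7% of the Ribo-seq reads in the HF group and 88.2% and 81.8% in the HB group. All 8 hepatocyte markers were present, with a summed mRNA level of 45141 and 46814 RPKM in HF and 53791 and 51573 RPKM in HB, while 1 of 8 Kupffer cell and 2 of 8 endothelial markers were called lower in RPF, where 7.86% of all tested genes were. In mRNA 8 of 8 Kupffer cell, 8 of 8 endothelial, 7 of 8 stellate, 3 of 8 neutrophil, 2 of 6 cholangiocyte and 0 of 8 lymphocyte markers were high enough to be tested, and none of those tested was called. The neutrophil markers summed to 11.1 and 60.9 RPKM of mRNA in HF and to 4.45 and 5.29 RPKM in HB. The stellate cell markers summed to 40.4 and 37.5 RPKM of mRNA in HF and 75.9 and 47.7 RPKM in HB, but to 153 and 134 RPKM of RPF in HF and 101 and 94.96 RPKM in HB. The cholangiocyte markers summed to 26.2 and 31.9 RPKM of mRNA in HF and 15.7 and 25.99 RPKM in HB. The part of these shifts in the results was not tested, and in whole liver fewer cells of a type and less RNA per cell cannot be told apart.

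Serpin mRNA stood higher in the HB group for most of the members. In mRNA all 10 log2 fold changes were positive, with the HB libraries above both HF libraries for 8 genes, led by Serpina1a (2.53-fold) and Serpina1d (2.24-fold). By the thresholds of the study, a log2 fold change beyond 1 with p under 0.001 in limma, none of the 10 was called, against 2.3% of 10687 tested genes called higher and 6.56% lower. When p was adjusted over all genes (Benjamini-Hochberg, under 0.05) at that fold change, Serpina1a and Serpina1d passed, 2 of 10, against 5.01% of tested genes higher and 12.7% lower. Both were lost with no filter on low genes (limma, adjusted p = 0.108 and 0.0838), at unchanged log2 fold changes of 1.34 and 1.16. Without HF replicate 1, which leaves 1 HF library, the log2 fold changes were 1.11 and 1.07. The calls also depended on which library was left out. An unadjusted p under 0.05 was reached by 5 of 10, all higher, against 12.9% higher and 27.6% lower, namely Serpina1a, Serpina1d, Serpina3k, Serpina3n and Serpina10. The 5 became 3 without HF replicate 1 (Serpina1a, Serpina1d and Serpina3m), 3 with no filter and 3 to 6 over all libraries left out in turn. The 8 non-overlapping members compare with 24.8% of all genes higher and 43.3% lower, and the 10 positive signs with 39.8% positive and 60.2% negative. Members that can share reads are not separate measurements, so these counts do not stand for 10 independent genes. Serpina6 and Serpina10, which share almost no windows, had adjusted p of 0.534 and 0.105 in limma. The count of 8 is as deposited, and the margins of Serpina3m and Serpina6 were narrow. The median log2 fold change was 0.69 over the members and -0.19 over all tested genes, and the 10 signs stayed positive when RPKM was rescaled to a common sum, a common median or protein-coding reads.

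Serpina1a had 1658 and 2276 RPKM of mRNA in the HF libraries and 5638 and 4298 RPKM in the HB libraries. Both HB values were well above both HF values, and the means were 1967 ± 438 and 4968 ± 947 RPKM (SD, n = 2). The fitted log2 fold change was 1.34 with a standard error of 0.33 (limma, adjusted p = 0.0186).

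Serpina1d had 757 and 859 RPKM of mRNA in HF and 2072 and 1573 RPKM in HB. Its groups were likewise apart, with a log2 fold change of 1.16 and a standard error of 0.30 (limma, adjusted p = 0.0210). With Serpina1a it was the member that moved most, although the tyrosine codon of its loop is shared with Serpina1c and not with Serpina1a.

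Serpina1b and Serpina1c, among the most abundant members, differed little. Serpina1b had 2807 and 3006 RPKM in HF and 3619 and 3723 RPKM in HB, with a log2 fold change of 0.34 and a 95% interval from -0.35 to 1.03 (limma, adjusted p = 0.434). Serpina1c had 2991 and 3519.6 RPKM in HF and 2762 and 4133 RPKM in HB, so the HB libraries lay on either side of the HF ones. Its log2 fold change of 0.06 (interval -0.70 to 0.82) turned to -0.23 without the second HB library and to -0.06 without the first HF library.

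Serpina1e, the scarcest copy, varied more within the groups than between them. It had 47.8 and 171 RPKM of mRNA in HF and 65.6 and 273 RPKM in HB, on 766, 2779, 2032 and 6778 reads. In each group the second library was above the other group's first library, and the log2 fold change of 0.56 had a standard error of 0.67 (limma, adjusted p = 0.558). It ran from -0.46 to 1.58 as 1 library was left out at a time, with negative values without the first HF or the second HB library.

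Serpina3k, the dominant Serpina3 member, had 1913 and 2091 RPKM of mRNA in HF and 3830.1 and 3525 RPKM in HB. The groups were clearly apart at 1.84-fold, and the log2 fold change of 0.88 with a standard error of 0.30 had an adjusted p of 0.0581 in limma. Serpina3n, the member of the group best known to rise in the acute phase response, had 74.0 and 78.6 RPKM in HF and 132 and 119 RPKM in HB. Its log2 fold change was 0.71 with a standard error of 0.25 (limma, adjusted p = 0.0603).

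Serpina3m had 103 and 70.8 RPKM of mRNA in HF and 172 and 109 RPKM in HB. The lower HB library was only just above the higher HF library, and the log2 fold change of 0.68 had an adjusted p of 0.135 in limma. It ran from 0.35 without HB replicate 1 to 1.00 without HB replicate 2, with 0.41 without HF replicate 2. As deposited, all 3 Serpina3 members thus had HB values above HF values, with log2 fold changes from 0.68 to 0.88. None had an adjusted p under 0.05 in limma. The margin of Serpina3m was narrow enough to be lost with another scaling.

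Serpina6 and Serpina10, which share almost no windows with other genes, differed from each other in size of change. Serpina6 had 277 and 329.5 RPKM of mRNA in HF and 329.6 and 387 RPKM in HB. Its groups met almost exactly, and the log2 fold change of 0.24 had an interval from -0.37 to 0.85 (limma, adjusted p = 0.534). Serpina10 had 50.0 and 83.6 RPKM in HF and 103 and 109 RPKM in HB, a log2 fold change of 0.70 with a standard error of 0.30 (limma, adjusted p = 0.105). It was 0.34 without HF replicate 1 and 1.07 without HF replicate 2. The HF libraries of Serpina10 were further from each other than the HB libraries.

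**Figure D2:**
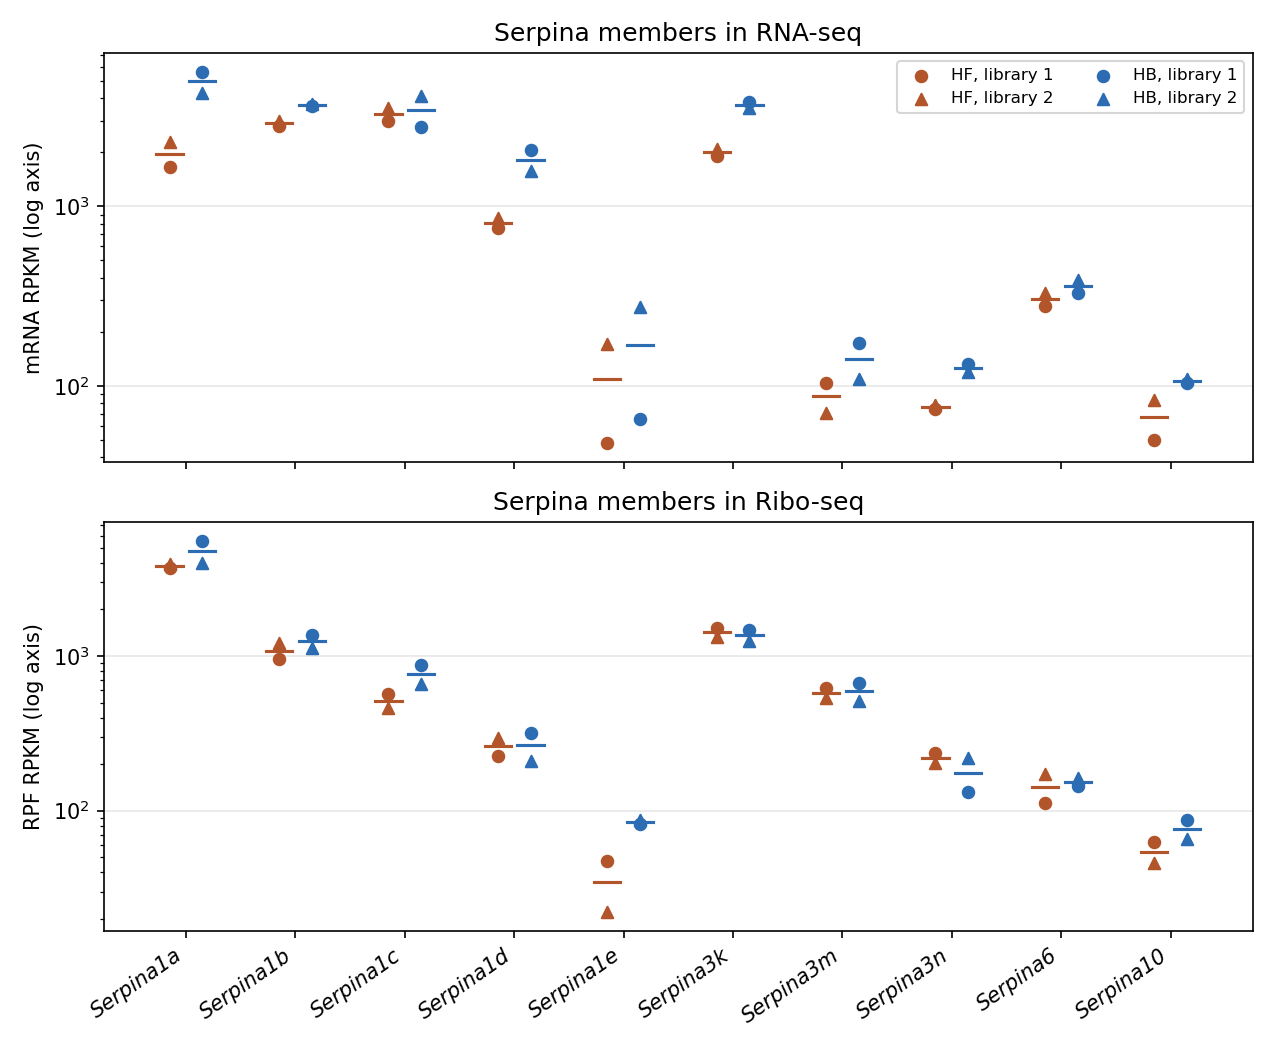
RPKM of the 10 members (log axis) in RNA-seq (top) and Ribo-seq (bottom), with HF in brown and HB in blue, circles and triangles for libraries 1 and 2 and bars for the group means (n = 2). In mRNA the HB libraries lie above both HF libraries for 8 genes, in RPF for 4.

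In RPF the members had a median log2 fold change of 0.17, against 0.69 in mRNA, and it was -0.70 after RPKM was rescaled to a common sum. Of the 10 members, 8 had a positive and 2 a negative value, against 29.6% positive and 70.4% negative over all genes, and the HB libraries were above both HF libraries for 4 (Serpina1a, Serpina1c, Serpina1e and Serpina10), against 9.07% of 11190 tested genes higher and 33.2% lower. These signs and the count of 4 depend on the scaling. After RPKM was rescaled to a common sum only Serpina1e stayed positive, so Serpina1a, Serpina1c and Serpina10 were no longer above both HF libraries. After scaling to protein-coding reads 9 were positive. Summed RPKM was 1088500 and 1253720 in HF and 1738580 and 2642060 in HB in Ribo-seq, of which protein-coding genes held 38.8%, 34.1%, 29.3% and 16.3% in that order. The median over all tested genes was -0.43 as deposited. The all-gene shares include weakly covered genes: 14308 genes had a value above 0 in HF and 11063 in HB. They are thus not the shares of equally covered genes. Of 24 tested plasma proteins of hepatocytes, 14 were positive and 10 negative in RPF.

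Serpina1e was the 1 member called in RPF (log2 fold change beyond 1, p under 0.05), against 1.58% of all tested genes called higher and 7.86% lower. It had 46.9 and 22.1 RPKM in HF, on 25 and 32 reads, and 82.2 and 87.3 RPKM in HB, on 29 and 17 reads. The 95% exact intervals were 30.4 to 69.3 and 15.1 to 31.1 RPKM in HF and 55.0 to 118 and 50.8 to 140 RPKM in HB, so the higher HF library overlapped both HB libraries in counting error. The log2 fold change was 1.37 with a standard error of 0.44, and the adjusted p was 0.493 in limma. The log2 fold change was 0.84 without the second HF library and 1.89 without the first. It was 1.41 and 1.32 without the first or second HB library. The call depended on which library was left out. It was also lost with a common sum, at a log2 fold change of 0.51, and without the variance trend, at an unchanged 1.37.

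Serpina1a, with the largest number of footprints, had 3723 and 3913 RPKM in HF and 5569 and 4016 RPKM in HB. The second HB library was close to the HF libraries, and the log2 fold change of 0.31 had an interval from -0.66 to 1.28 (limma, adjusted p = 0.771). Serpina1c had 567 and 463 RPKM in HF and 869 and 663 RPKM in HB. Its log2 fold change of 0.57 (limma, adjusted p = 0.585) was the second largest of the members in RPF, whereas in mRNA it was the smallest.

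Serpina1b had 962 and 1205 RPF RPKM in HF and 1376 and 1128 RPKM in HB, and Serpina1d had 225 and 295 RPKM in HF and 318 and 210.2 RPKM in HB. Both overlapped between the groups. The log2 fold change of Serpina1d was 0.00 with an interval from -0.86 to 0.87, and that of Serpina1b was 0.21 with an interval from -0.58 to 1.00.

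In the Serpina3 members the footprints of HB and HF overlapped throughout as deposited. After rescaling to a common sum, the summed RPF of the Serpina3 members was lower in both HB libraries. It was then 3666 and 2772 RPKM in HF and 2203 and 1259 RPKM in HB. The values that follow are as deposited. Serpina3k had 1519.6 and 1332 RPKM in HF and 1476 and 1250.0 RPKM in HB, a log2 fold change of -0.07 with an interval from -0.83 to 0.70. Serpina3m had 619.9 and 532 RPKM in HF and 671 and 509.8 RPKM in HB, a log2 fold change of 0.03 with an interval from -0.73 to 0.78.

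Serpina3n had 235 and 204 RPF RPKM in HF and 132 and 219.7 RPKM in HB. Its first HB library, on 71 reads, was below the other 3, and the log2 fold change of -0.36 (limma, adjusted p = 0.710) moved to 0.00 without that library. Serpina6 had 112 and 173 RPKM in HF and 145 and 162 RPKM in HB, with the HB libraries between the HF ones. Serpina10 had 62.5 and 45.9 RPKM in HF and 87.0 and 65.7 RPKM in HB, on 15 to 78 reads, and its log2 fold change of 0.49 had an adjusted p of 0.646 in limma.

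Translation efficiency (TE), the RPF RPKM over the mRNA RPKM of the libraries with the same group and number, was lower in both HB libraries for 5 members. These were Serpina1a, Serpina1d, Serpina3k, Serpina3m and Serpina3n, 5 of 10, against 31.7% of 9455 tested genes lower and 14% higher. The log2 fold change was positive for 2 members and negative for 8, against 36.8% and 63.2% of all genes. No member was called (log2 fold change beyond 2, p under 0.05), against 1.49% of all genes called higher and 4.6% lower. Since TE is divided by mRNA, a member with more mRNA and unaltered footprints has a lower TE by construction, so these values are no further evidence beside the mRNA result. The size of the TE differences depends on the scaling: after a common sum all 10 were negative with a median of -1.26, against -0.43 as deposited, while after scaling to protein-coding reads 4 were positive and 6 negative with a median of -0.27. With a common sum the log2 fold changes were -1.86 for Serpina1a, -1.98 for Serpina1d, -1.77 for Serpina3k, -1.48 for Serpina3m and -1.90 for Serpina3n, beside a median of -1.03 over all genes. An unadjusted p under 0.05 was then reached by 4 of 10 (not Serpina1d), all lower, against 26.7% of all genes, and the smallest adjusted p of a member was 0.0951 in limma. The numbers join RNA-seq and Ribo-seq libraries that are not known to come from the same animals. Across genes, the differences between libraries 1 and 2 had a correlation between the assays of -0.00239 in HF and -0.0774 in HB. The count of 5 holds for libraries joined in this way, and the place of Serpina3m in it depends on the joining.

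The TE of Serpina1a was 2.25 and 1.72 in HF and 0.988 and 0.934 in HB. The group means were 1.98 ± 0.373 and 0.961 ± 0.0377 (SD, n = 2), and the log2 fold change was -1.03 with a standard error of 0.50 (limma, adjusted p = 0.469). The TE of Serpina1d was 0.297 and 0.344 in HF and 0.154 and 0.134 in HB, a log2 fold change of -1.16 (limma, adjusted p = 0.590). The mean TE in HB was 0.485 of that in HF for Serpina1a and 0.448 for Serpina1d, with no overlap between the groups in either gene.

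In the Serpina3 members TE was 0.795 and 0.637 in HF and 0.385 and 0.355 in HB for Serpina3k, with a log2 fold change of -0.94 and an interval from -2.52 to 0.63 (limma, adjusted p = 0.581). Serpina3n had 3.18 and 2.60 in HF and 1.00 and 1.85 in HB, with a log2 fold change of -1.07 (limma, adjusted p = 0.473). Serpina3m had 6.00 and 7.51 in HF and 3.89 and 4.66 in HB, the highest TE of all members in both groups, with a log2 fold change of -0.65 (limma, adjusted p = 0.586). For all 3 the HF libraries were above the HB libraries, but no adjusted p was under 0.473 in limma. For Serpina3m this separation depends on which RNA-seq and Ribo-seq libraries are joined.

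The remaining members overlapped between the groups in TE. Serpina1b was between 0.303 and 0.401 over the 4 pairs and Serpina6 between 0.405 and 0.525. Serpina1c had a TE of 0.189 and 0.132 in HF and 0.314 and 0.160 in HB. Serpina1e ranged from 0.129 to 1.25 and Serpina10 from 0.549 to 1.25, both with a wide spread inside the HF group. When assay and group were fitted as an interaction over all 8 libraries in limma, the smallest adjusted p was 0.189, for Serpina3k, followed by 0.241 for Serpina1d, 0.255 for Serpina1a and 0.272 for Serpina3n.

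**Figure D3:**
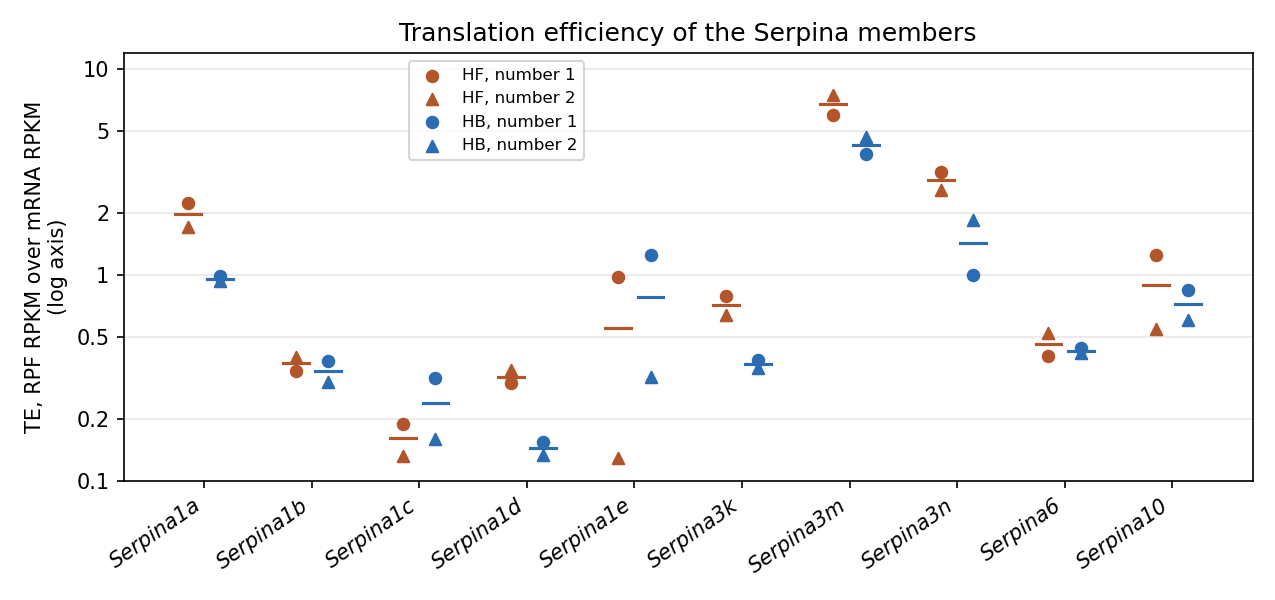
Translation efficiency (RPF RPKM over mRNA RPKM, log axis) of the 10 members for each pair of libraries, HF in brown and HB in blue, with bars for the group means (n = 2). Serpina3m is highest in both groups, and the HB pairs lie below the HF pairs for Serpina1a, Serpina1d, Serpina3k, Serpina3m and Serpina3n.

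**Figure D4:**
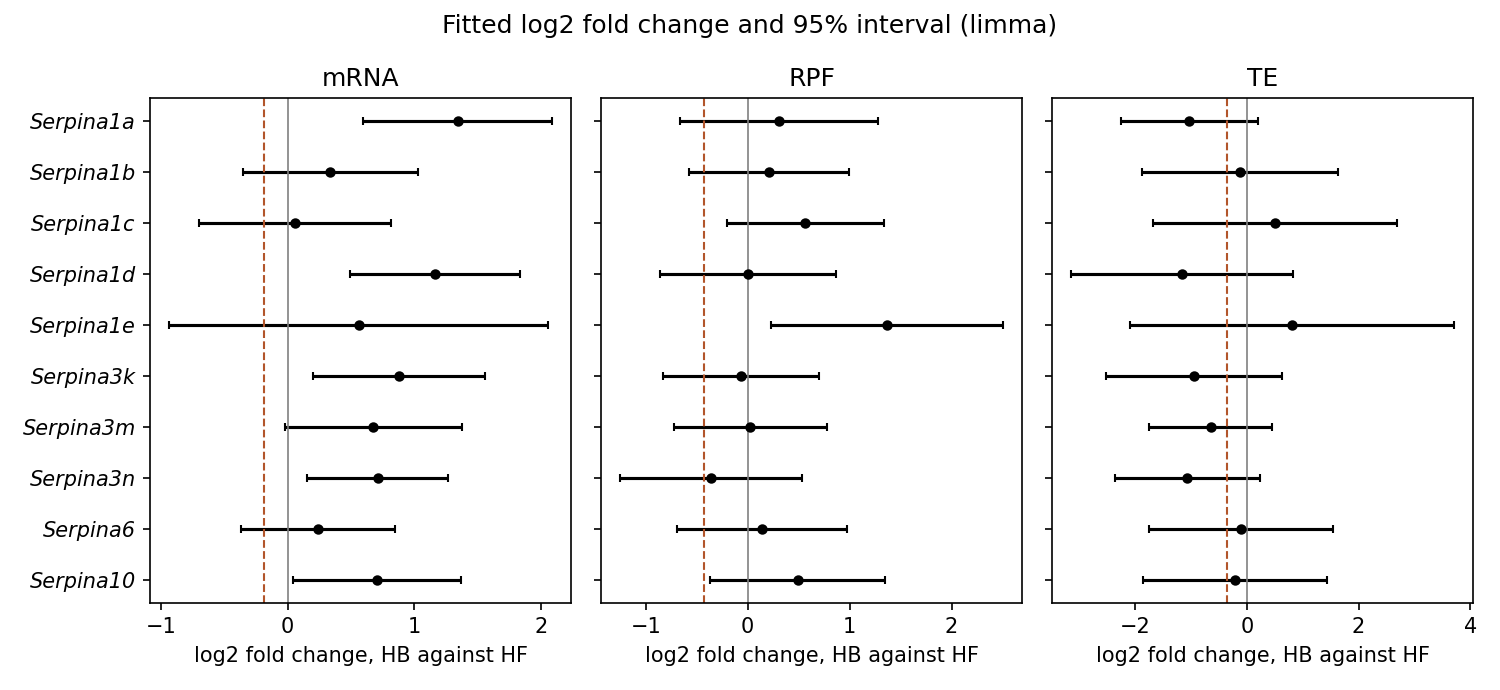
Fitted log2 fold change (x axis, HB against HF) of each member with its 95% interval from limma, in mRNA, RPF and TE. The dashed line is the median of all tested genes (-0.19, -0.43 and -0.35), and the intervals leave out 0 for 5 members in mRNA and for Serpina1e in RPF.

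Sums over close copies depend less than single members on how reads were divided, although the lengths behind RPKM differ between copies and some windows are shared with genes outside the sum: in Serpina3n 39.3% of the windows of 28 bases had a copy in any gene and 8.23% in another member, against 92.6% and 87.8% in Serpina1a. Serpina1a to Serpina1e summed to 8261 and 9832 RPKM of mRNA in HF and to 14157 and 14000.5 RPKM in HB, a ratio of the means of 1.56. In RPF the sums were 5524 and 5899 RPKM in HF and 8214 and 6105 RPKM in HB, a ratio of 1.25. As deposited, both assays had HB above HF for the alpha-1-antitrypsin copies as a group, with the second HB library of Ribo-seq close to the HF libraries. The mRNA ratio was 1.51 after rescaling to a common sum and 1.54 after scaling to protein-coding reads, whereas the RPF ratio was 0.719 and 1.37, so the direction in RPF turned with a common sum.

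The Serpina3 members summed to 2089.8 and 2240.0 RPKM of mRNA in HF and to 4135 and 3753 RPKM in HB, a ratio of 1.82. In RPF they summed to 2374 and 2068 RPKM in HF and to 2279 and 1979 RPKM in HB, a ratio of 0.959 with overlapping groups. With a common sum and with protein-coding reads the Serpina3 ratios were 1.78 and 1.80 in mRNA and 0.538 and 1.05 in RPF. The RPF groups overlapped with protein-coding reads, but with a common sum both HB libraries were below HF. As deposited, the TE of the summed Serpina3 members was 1.14 and 0.923 in HF and 0.551 and 0.527 in HB. That of the Serpina1 sum was 0.669 and 0.600 in HF and 0.580 and 0.436 in HB. The 10 members together took 1.77% ± 0.198 of the RNA-seq reads in HF and 2.89% ± 0.0836 in HB (SD, n = 2), and 1.42% ± 0.0131 and 1.66% ± 0.302 of the Ribo-seq reads.

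The share of each copy in the Serpina1 sum was computed for every library. Serpina1a held 20.1% and 23.2% of the summed Serpina1 mRNA RPKM in HF and 39.8% and 30.7% in HB. In RPF it held 67.4% and 66.3% in HF and 67.8% and 65.8% in HB, so footprints assigned to Serpina1a were a near constant share in all 4 libraries. Serpina1c held 36.0% ± 0.290 of the mRNA in HF and 24.5% ± 7.08 in HB, and 9.05% ± 1.70 and 10.7% ± 0.204 of the footprints (SD, n = 2). The length behind RPKM was 1724 bases for Serpina1a in RNA-seq and 1939 in Ribo-seq, and 1424 in both for Serpina1c. Serpina1a and Serpina1c share 79.1% of their windows of 28 bases and 71.4% of those of 50 bases, and the part of shared reads in this difference between assays was not tested.

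**Figure D5:**
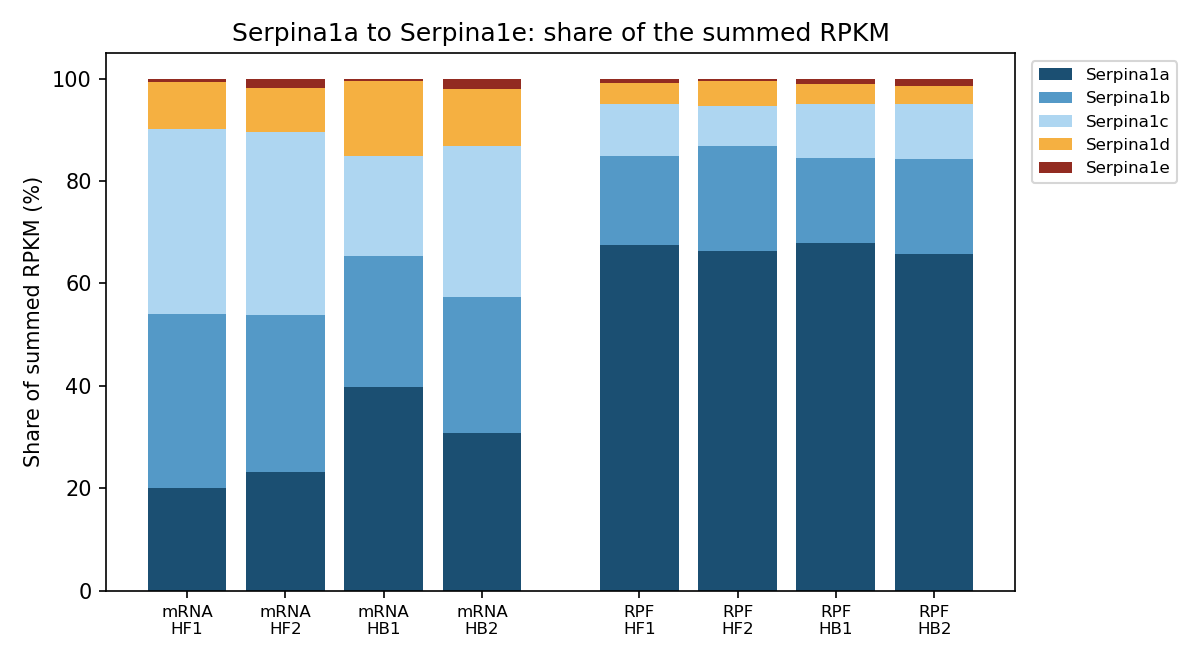
Share (%) of the summed RPKM of the 5 Serpina1 genes held by each gene in every library, mRNA on the left and RPF on the right. Serpina1a holds 20.1% to 39.8% in mRNA, higher in both HB libraries, and 65.8% to 67.8% in RPF.

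Levels set the order of the members. In HF mRNA Serpina1c (3255 ± 374 RPKM) and Serpina1b (2906 ± 141 RPKM) led with overlapping ranges, followed by Serpina3k (2002 ± 126 RPKM) and Serpina1a, which also overlapped. In HB mRNA Serpina1a moved to the top and was apart from Serpina3k (3677 ± 216 RPKM), Serpina1b (3671 ± 73.4 RPKM) and Serpina1c (3448 ± 969 RPKM), which overlapped with their neighbours in that order. Serpina1d (808 ± 71.9 and 1823 ± 353 RPKM) and Serpina6 (303 ± 37.2 and 358 ± 40.5 RPKM) came next in both groups, each apart from its neighbours. Serpina1e, Serpina3m, Serpina3n and Serpina10 were the lowest in both groups, with group means from 66.8 to 169 RPKM.

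In RPF the order began with Serpina1a (3818 ± 134 RPKM in HF and 4793 ± 1098 RPKM in HB), apart from Serpina3k (1426 ± 133 and 1363 ± 160.0 RPKM), in both groups. Serpina1b followed, overlapping with Serpina3k in HB but not in HF. Serpina3m, at rank 8 of the members in mRNA, ranked 4 in HF footprints at 576 ± 62.3 RPKM and 5 in HB at 590.2 ± 114 RPKM. By mean RPKM over all genes with a value above 0, Serpina1a ranked 30 of 15843 in HF and 15 of 16211 in HB mRNA, and 30 of 14308 and 32 of 11063 in RPF.

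The genes whose profile over the 8 libraries was closest to the median profile of the members were Apoh (beta-2-glycoprotein I, a plasma protein), Hsp90ab1 (a cytosolic chaperone) and Uqcrh (a subunit of respiratory complex III). They were ranked among 471 genes averaging at least 100 RPKM in both assays, by Euclidean distance of log2(RPKM + 1) centred per gene and assay, with distances of 0.248, 0.263 and 0.280. Their mRNA log2 fold changes were 0.57, 0.74 and 0.90, and those in RPF 0.33, 0.24 and 0.29. The likeness is a description over 8 libraries that differ in depth.

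Among 31 other serpin genes, 16 were tested in mRNA, with 13 positive and 3 negative log2 fold changes, a median of 0.54 and none called in either direction, against 39.8% positive, 2.3% called higher and 6.56% called lower over all genes. This list leaves out Serpina4-ps1, Serpina3h and Serpina1f, of which Serpina4-ps1 was tested in mRNA with a negative value. In RPF 21 were tested, of which 1 (Serpina11) was called higher and 2 lower, Serpinb8 among them, against 1.58% and 7.86% of all genes. Serpina11 had 19.2 and 7.06 RPF RPKM in HF and 44.8 and 28.7 RPKM in HB (log2 fold change 1.53, limma, adjusted p = 0.493). These values rested on 11, 11, 17 and 6 reads, and 3 reads of Serpina11 equal 14.3 RPKM in the second HB library. Serpinb8 had 18.8 and 8.46 RPKM in HF and 3.16 and 0 in HB, on 9, 11, 1 and 0 reads. As 3 reads equal 9.48 and 17.2 RPKM in the HB libraries, a difference of this size was hardly detectable at this depth. It was also called lower in TE, where the list had 3 positive and 13 negative signs, against 63.2% negative over all genes.

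Of the 16 Serpina genes outside the 10, 6 entered the mRNA test, 2 with a positive and 4 with a negative log2 fold change, and those described here were singled out after their values were seen. Serpina12 (vaspin) had 3.83 and 10.5 RPKM of mRNA in HF and 20.0 and 18.8 RPKM in HB (log2 fold change 1.45, limma adjusted p = 0.0202). Serpina7 (thyroxine-binding globulin) had 14.5 and 14.7 RPKM in HF and 56.8 and 22.1 RPKM in HB (1.23, adjusted p = 0.0413). Serpina3g had 6.54 and 4.73 RPKM in HF and 2.06 and 2.96 RPKM in HB (-0.92, adjusted p = 0.0330). The other negative values were -0.50 for Serpina11, -0.49 for Serpina4-ps1 and -0.38 for Serpina3f, with adjusted p from 0.205 to 0.3299. Serpina3c had at most 0.25 RPKM of mRNA in any library but 48.3 to 99.1 RPKM of RPF, and Serpina3f had at most 1.91 RPKM of mRNA and 63.0 to 119 RPKM of RPF. Exact copies in other genes covered 30.3% of the windows of 28 bases in Serpina3c and 45.2% in Serpina3f. The part of shared footprints in these values and in the high TE of Serpina3m was not tested.

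Of 25 plasma proteins of hepatocytes, 24 were tested in each measure and none was called, with all-gene shares called higher and lower of 2.3% and 6.56% in mRNA, 1.58% and 7.86% in RPF and 1.49% and 4.6% in TE, so few calls would be expected from so short a list. The list had median log2 fold changes of 0.11 in mRNA, 0.05 in RPF and -0.21 in TE. The members' median of 0.69 in mRNA stood above that of these secreted proteins. A list of 21 genes held proteases that serpins inhibit and also Proz, the protein Z on which Serpina10 depends. Of the 21, 16 were tested in each measure and none was called, against the same all-gene shares. The list's medians were 0.12 in mRNA, -0.10 in RPF and -0.20 in TE.

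Of 24 genes of folding and transport in the secretory pathway, through which serpins leave the cell, Pdia6 was called higher and Syvn1 lower in mRNA, 1 of 24 each against 2.3% of all genes higher and 6.56% lower, and none was called in RPF or TE. Pdia6, a disulfide isomerase, had 50.4 and 76.9 RPKM in HF and 169 and 149.7 RPKM in HB (log2 fold change 1.34, limma adjusted p = 0.0107). Syvn1, a ubiquitin ligase that clears misfolded proteins including alpha-1-antitrypsin variants, had 230.2 and 176 RPKM in HF and 36.9 and 57.7 RPKM in HB (-2.10, adjusted p = 0.00525). The list's medians were 0.34 in mRNA, -0.14 in RPF and -0.44 in TE.

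Of 16 liver transcription factors known to drive serpin genes, 15 were tested. In mRNA 1 was called higher and 1 lower, against 2.3% and 6.56% of all genes, and none was called in RPF or TE. Onecut1 had 1.13 and 0.464 RPKM in HF and 25.3 and 7.01 RPKM in HB (log2 fold change 3.04, limma adjusted p = 0.00526). Nr1h4, the bile acid receptor FXR, had 224 and 176 RPKM in HF and 47.2 and 63.6 RPKM in HB (-1.84, adjusted p = 0.00526). The list's medians were -0.57 in mRNA, 0.00 in RPF and 0.39 in TE.

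Of 15 genes of glucocorticoid handling and response, which bear on the ligands of Serpina6, 14 were tested. In mRNA Srd5a1, a steroid reductase, was called higher, with 6.92 and 9.68 RPKM in HF and 32.4 and 24.3 RPKM in HB (log2 fold change 1.66, limma adjusted p = 0.00564). Per1 (-1.43, adjusted p = 0.00847) and Dusp1 (-1.44, adjusted p = 0.0106), which glucocorticoids are known to induce, were called lower, so that 1 of 14 was called higher and 2 lower against 2.3% and 6.56% of all genes. Zbtb16 was called lower in RPF and TE, where 7.86% and 4.6% of all genes were, with 18.6 and 9.93 RPF RPKM in HF and 4.59 and 0 in HB. The list's medians were -0.50 in mRNA, -0.57 in RPF and 0.21 in TE.

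Of 25 acute phase genes, all were tested in mRNA and 24 in RPF and TE. Crp (1.34) and Saa2 (1.22) were called higher and Orm3 (-2.55) lower in mRNA on the log2 scale, 2 and 1 of 25 against 2.3% and 6.56% of all genes, and the list's median was -0.11 with 10 positive and 15 negative signs. In RPF 2 of 24 were called lower, against 7.86% of all genes, and the median was -0.21. Il6ra had 40.5 and 17.7 RPKM in HF and 4.61 and 8.36 RPKM in HB, on 53, 63, 4 and 4 reads (limma, adjusted p = 0.493). In the HB libraries 3 reads equal 3.46 and 6.27 RPKM for this gene. Orm2 rested on 1 and 1 reads in HF and 0 and 0 in HB, where no difference was detectable at this depth. In TE Saa3 (3.41), Mt1 (3.68) and Hamp (3.83) were called higher, 3 of 24 against 1.49% of all genes, with adjusted p of 0.328, 0.334 and 0.364 in limma, and the median was -0.18. Saa3 rested on 1 to 3 footprint reads in each library. Mt1 rested on 20 and 11 reads in HF and 5 and 9 in HB, and Hamp on 5 and 95 in HF and 57 and 18 in HB. The Mt1 footprints overlapped between the groups, at 95.1 and 19.2 RPKM in HF and 35.9 and 117 RPKM in HB. The Orm and Saa genes are themselves close copies of one another, and their reads may be divided in the same uncertain way.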

How the data were processed

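RNA-seq and Ribo-seq libraries of mouse liver, 2 per group and assay, were analysed from the RPKM values per gene that the authors deposited. The authors mapped reads to mm10 with FANSe2, and the submitters' processing notes also name edgeR. The annotation and whether coding or whole transcripts were counted are not given in the sources used here. The lengths behind RPKM exceeded the coding sequences, at 1424 bases against 1239 for Serpina1c and 1659 against 1254 for Serpina3m. RPKM was thus not scaled by coding length alone. RPKM is no count, so edgeR was not used. The members and lists were chosen with earlier results of these data known.

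Genes averaging at least 1 RPKM entered tests by limma 3.58.1 under R 4.3.3 (eBayes with trend) on log2(RPKM + 1), over all genes, two-sided, with Benjamini-Hochberg adjustment. Fold changes are on this scale, which understates low genes. The log2 thresholds were 1 for mRNA (p under 0.001) and RPF (p under 0.05) and 2 for TE (p under 0.05). Of 24539 RNA-seq entries, 4 whose symbol occurs more than once were dropped. Ribo-seq held 25033 entries.

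Whole reads were recovered from the RPKM steps (tolerance 0.001 reads): 99.99% of RNA-seq and 99.73% of Ribo-seq values were whole, and the reads summed to 96.4% to 98.3% of the inferred totals. They gave depths, exact 95% intervals and a voom alternative. Lengths behind RPKM differed between assays for Serpina1a and Serpina10 (1447 and 1609 bases), which shifts their TE level but not its change. Named genes were the 10 members, the 3 genes of nearest profile and at most 3 called genes per list, smallest p first; the Serpina genes outside the list of members were added after their values were seen, and not every gene this selects is reported here. Identity was taken from global alignments (Biopython 1.88). The steps were tested on simulated data. Alternatives were another pseudocount (0.1), filter (none, or 5), scaling, trend, block, p threshold, leaving out each library, an interaction model, crossed numbers and sums over copies. Scaling to protein-coding reads and the crossed block were chosen after seeing the data.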

Additional observations from a re-analysis of the deposited data

How the results depend on the processing

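The count of members called higher in mRNA, 0 as reported, was 1 with a common median, without the variance trend and with voom on recovered reads (Serpina1a in each), and 2 with an adjusted p under 0.05. Leaving out 1 library gave 0 to 2, the 2 being Serpina1a and Serpina1d without HB replicate 2. With an adjusted p, leaving out 1 library, read so after seeing the data, gave 0 without HF replicate 1, 1 without HB replicate 1, 2 without HF replicate 2 (Serpina1a and Serpina1e) and 3 without HB replicate 2. In RPF the count of 1 fell to 0 with a common sum, without the trend and with an adjusted p under 0.05, and was 0 to 1 when 1 library was left out, with 0 without HF replicate 2 or either HB library. Serpina3n was called lower in RPF with a common sum only (log2 fold change -1.23), a count of 1.

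A common sum turned the RPF log2 fold changes of Serpina1a (-0.57), Serpina1b (-0.66), Serpina1c (-0.31), Serpina1d (-0.87), Serpina3m (-0.85), Serpina6 (-0.73) and Serpina10 (-0.37) and the TE ones of Serpina1c (-0.32) and Serpina1e (-0.0069). It moved the median of all genes from -0.43 to -1.19 in RPF and from -0.35 to -1.03 in TE. Serpina3k RPF turned positive with a common median (0.26) and with protein-coding reads (0.058), which also turned the TE of Serpina1b (0.032) and Serpina6 (0.056). With 1 library left out, the ranges that crossed 0 were -0.23 to 0.35 for Serpina1c and -0.46 to 1.58 for Serpina1e in mRNA. In RPF they were -0.29 to 0.30 for Serpina1d, -0.19 to 0.053 for Serpina3k, -0.17 to 0.22 for Serpina3m, -0.72 to 0.0044 for Serpina3n and -0.17 to 0.45 for Serpina6. In TE they were -0.29 to 0.036 for Serpina1b, -0.63 to 2.24 for Serpina1e, -0.29 to 0.083 for Serpina6 and -0.80 to 0.37 for Serpina10. Their cause was not tested.

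Same-numbered libraries had a correlation of deviations across genes of -0.104 in mRNA and -0.0138 in RPF, so the numbers are no pairing. With the replicate block 2 members (Serpina1a and Serpina1d) and 498 of all genes were called higher in mRNA, against 0 and 246. Crossing the block, an alternative added after seeing the data, called 0 members and 474 genes higher and 1303 lower. All genes called lower in mRNA numbered 701 as reported, 188 with no filter, 291 with a common median, 1229 with the block and 1353 with an adjusted p under 0.05. Those called higher numbered 77, 540 and 535 with no filter, a common median and an adjusted p. In RPF 177 were called higher and 879 lower as reported, 349 and 421 with a common median, 42 and 2816 with a common sum and 0 in either direction with an adjusted p. A mean RPKM of at least 5 left 311 lower in RPF. Voom called 455 higher. In TE 141 and 435 were called as reported, 41 and 1346 with a common sum, 71 and 179 with a mean RPKM of at least 5 and 0 in either direction with an adjusted p. Leaving out 1 library gave 166 to 502 higher and 549 to 1048 lower in mRNA, 57 (without HF replicate 1) to 524 (without HB replicate 2) higher and 722 to 2609 (without HB replicate 1) lower in RPF, and 63 to 455 higher and 123 to 1266 lower in TE. With 15 to 78 reads for Serpina10 and 17 to 32 for Serpina1e in Ribo-seq, counting error alone limits these members.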
